A study of Homo sapiens with 48 samples.

Results

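The genes described here belong to the plasminogen activation system and to the family of secreted matrix metalloproteinases with their inhibitors. They are 9 of the 60610 genes in the table: the plasminogen activators PLAU and PLAT, the urokinase receptor PLAUR, the plasminogen activator inhibitor SERPINB2, the collagenase MMP1, the stromelysins MMP3 and MMP10, and the metalloproteinase inhibitors TIMP1 and TIMP3. The group was chosen by name and function, and SERPINB2 and MMP10 lead it because their CPM (counts scaled to library size) at 6 h had been seen to be far higher under joint stimulation. For this reason the comparisons between treatments at 6 h are a description for all 9 genes: no p-value of a single gene is given, counts of calls stand beside the share over all genes, and nothing is read from either.

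HEK293, an established human embryonic kidney line, was used as a single clone carrying a stably integrated AT1R, which binds angiotensin II (AII). This clone was obtained with puromycin selection in the presence of losartan, and all groups, control included, carry the receptor. In serum-free medium the cells received no stimulus (control), AII (1 nM), EGF (10 µg/L) or both (AII + EGF) for 6 h or 24 h, and 6 libraries are labelled for each of these 8 groups. The design asks whether activation of AT1R and of the EGF receptor together changes gene expression beyond either receptor alone.

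Of the 48 libraries, 38 were used. Left out were 8 libraries that form 4 pairs with a chi-square per degree of freedom of 0.397 to 0.505 between their counts, less than independent sampling gives, while the next closest pair within a group reached 2.02. A further 2 libraries were left out because their labels are in doubt: on a scale of 1487 genes, without the 9 genes described here, on which the AII 6 h libraries lie at 0 and the AII + EGF 6 h libraries at 1, AII replicate 6 lay at 0.856 and AII + EGF replicate 6 at -0.00610. At 6 h this left 4 control, 5 AII, 3 EGF and 4 AII + EGF libraries, and at 24 h 6, 5, 5 and 6. Depth averaged 22.3 ± 3.02 M counts (SD) over the 38 libraries, with 17.8 M the lowest and 29.96 M the highest. AGTR1, the gene of AT1R, averaged 4271 ± 239 CPM (SD, n = 4) in control cells and 10041 ± 436 CPM under AII + EGF at 6 h, and EGFR 19.2 ± 2.86 and 46.9 ± 2.45 CPM. The part of these receptor levels in the results below was not tested, and counts cannot separate the introduced AGTR1 from the cell's own. Summed over 5 markers each, the leukocyte list stayed at or under 2.51 CPM and the endothelial list at or under 2.62 CPM in every library used, while the fibroblast list (mostly COL1A1 and COL3A1) ranged from 19.7 to 75.0 CPM. Nothing says that the libraries come from separate cultures, so p-values measure only the spread between libraries.

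Plasmin, the protease that dissolves fibrin, is made from circulating plasminogen by PLAU (urokinase) and PLAT (tissue plasminogen activator). PLAUR holds urokinase at the cell surface, and SERPINB2, also called PAI-2, inactivates both activators. Plasmin and the stromelysins can activate other secreted metalloproteinases such as MMP1, which cleaves fibrillar collagen, and TIMP1 and TIMP3 block the active proteases. Genes of this group are classic targets of AP-1 and ETS transcription factors, which act downstream of growth factor receptors.

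The start regions of 3 of these genes are shown because a motif of AP-1 lies in each of them. RefSeq start regions (GRCh38.p14) were found for 6 of the 9 genes. The 250 bases before the start of MMP10 (chr11:102780629-102780878, minus strand), SERPINB2 (chr18:63887455-63887704, plus strand) and PLAUR (chr19:43670170-43670419, minus strand) are printed 5′ to 3′, with the AP-1 motif TGANTCA and the TATA motif TATAAA in capitals.
MMP10: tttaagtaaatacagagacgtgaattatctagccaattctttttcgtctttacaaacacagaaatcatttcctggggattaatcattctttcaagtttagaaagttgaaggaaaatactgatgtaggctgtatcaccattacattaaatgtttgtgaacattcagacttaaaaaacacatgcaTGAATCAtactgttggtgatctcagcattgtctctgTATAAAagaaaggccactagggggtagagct
SERPINB2: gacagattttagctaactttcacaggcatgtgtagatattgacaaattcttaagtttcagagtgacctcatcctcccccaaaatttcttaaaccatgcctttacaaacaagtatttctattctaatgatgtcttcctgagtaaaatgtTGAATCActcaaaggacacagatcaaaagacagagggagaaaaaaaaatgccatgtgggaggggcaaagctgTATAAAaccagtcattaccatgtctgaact
PLAUR: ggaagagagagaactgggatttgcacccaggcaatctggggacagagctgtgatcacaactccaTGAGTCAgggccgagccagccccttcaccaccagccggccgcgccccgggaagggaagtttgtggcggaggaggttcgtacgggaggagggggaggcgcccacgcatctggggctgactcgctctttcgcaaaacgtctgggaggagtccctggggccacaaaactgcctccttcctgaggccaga

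The AP-1 motif, which reads the same on both strands, begins 67 bases before the start of MMP10, 102 bases before that of SERPINB2 and 186 bases before that of PLAUR. It was not found in the same window of PLAU (both of its listed starts), TIMP1 or TIMP3. Of 35114 windows of this length over all genes, 6.57% hold the motif. TATAAA, searched on the gene's strand, begins 31 bases before the start of MMP10 and 30 bases before that of SERPINB2, and 6.8% of all windows hold it. The ETS motif AGGAAG, searched on both strands, begins 119 bases before the start in SERPINB2, 15 bases in PLAUR, 87 bases in TIMP1 and 221 bases in the second start of PLAU, against 28.7% of all windows, and overlaps none of the capitals. A CArG box, the motif of SRF, was found in none of them and in 1.16% of all windows. These matches describe letters only.

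In control cells at 6 h the TIMP inhibitors had the highest levels per length. TIMP1 stood at 55.5 ± 13.8 CPM per kb of exon (SD, n = 4) and TIMP3 at 26.2 ± 1.70 CPM per kb, with PLAT at 3.75 ± 0.118 and PLAUR at 1.14 ± 0.294 CPM per kb. PLAU (0.308 ± 0.111 CPM per kb) and MMP10 (0.220 ± 0.0988 CPM per kb) lay within their spread of each other, and SERPINB2 was at 0.0334 ± 0.0298 CPM per kb. Under AII + EGF at 6 h MMP10 reached 18.03 ± 1.56 CPM per kb (SD, n = 4), next after TIMP1 at 92.6 ± 10.1 and TIMP3 at 36.1 ± 2.81 CPM per kb, and SERPINB2 reached 4.78 ± 0.279 CPM per kb, between PLAT at 7.29 ± 1.04 and PLAUR at 2.20 ± 0.361 CPM per kb. All further levels are in CPM without a length.

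The largest fold among the 9 genes was that of SERPINB2, the inhibitor of both activators. Its 4 control libraries at 6 h held 0, 0.0456, 0.160 and 0.161 CPM, from 0 to 3 counts each. The 5 AII libraries held 0.322, 0.353, 0.370, 0.421 and 0.440 CPM, and the 3 EGF libraries 0.191, 0.384 and 0.493 CPM. Each stimulus alone left SERPINB2 above all controls among the libraries used, but at no more than 13 counts per library. The left-out EGF replicates 2 and 6, a near-identical pair, held 3 counts each. At 0.0883 and 0.0886 CPM on the scaling of all 48 libraries, they lay within the range of the controls. With both stimuli the 4 libraries held 12.2, 12.7, 13.7 and 13.7 CPM, far from every other library used at this time. The log2 change against control was 7.16 ± 0.45 (SE) for AII + EGF, against 2.09 ± 0.59 for AII and 1.98 ± 0.63 for EGF. As a ratio of pooled counts, 1012 under AII + EGF against 7 in control, SERPINB2 was 154-fold higher, with an exact binomial 95% interval of 74.4 to 383 that covers counting error only. In bulk RNA a difference in the number of expressing cells and in RNA per cell cannot be told apart.

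MMP10 (stromelysin-2) showed the same order with more counts. Control libraries at 6 h held 0.274, 0.307, 0.319 and 0.645 CPM. AII libraries held 2.20, 2.32, 2.84, 3.18 and 3.75 CPM and EGF libraries 1.27, 1.33 and 1.68 CPM, so that control, EGF and AII did not overlap. Under AII + EGF it stood at 28.8, 30.4, 32.5 and 35.2 CPM. The log2 change was 2.89 ± 0.45 for AII, 1.89 ± 0.51 for EGF and 6.36 ± 0.45 for AII + EGF. Pooled counts gave an 84.1-fold ratio of AII + EGF to control (95% interval 59.1 to 124).

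**Figure D1:**
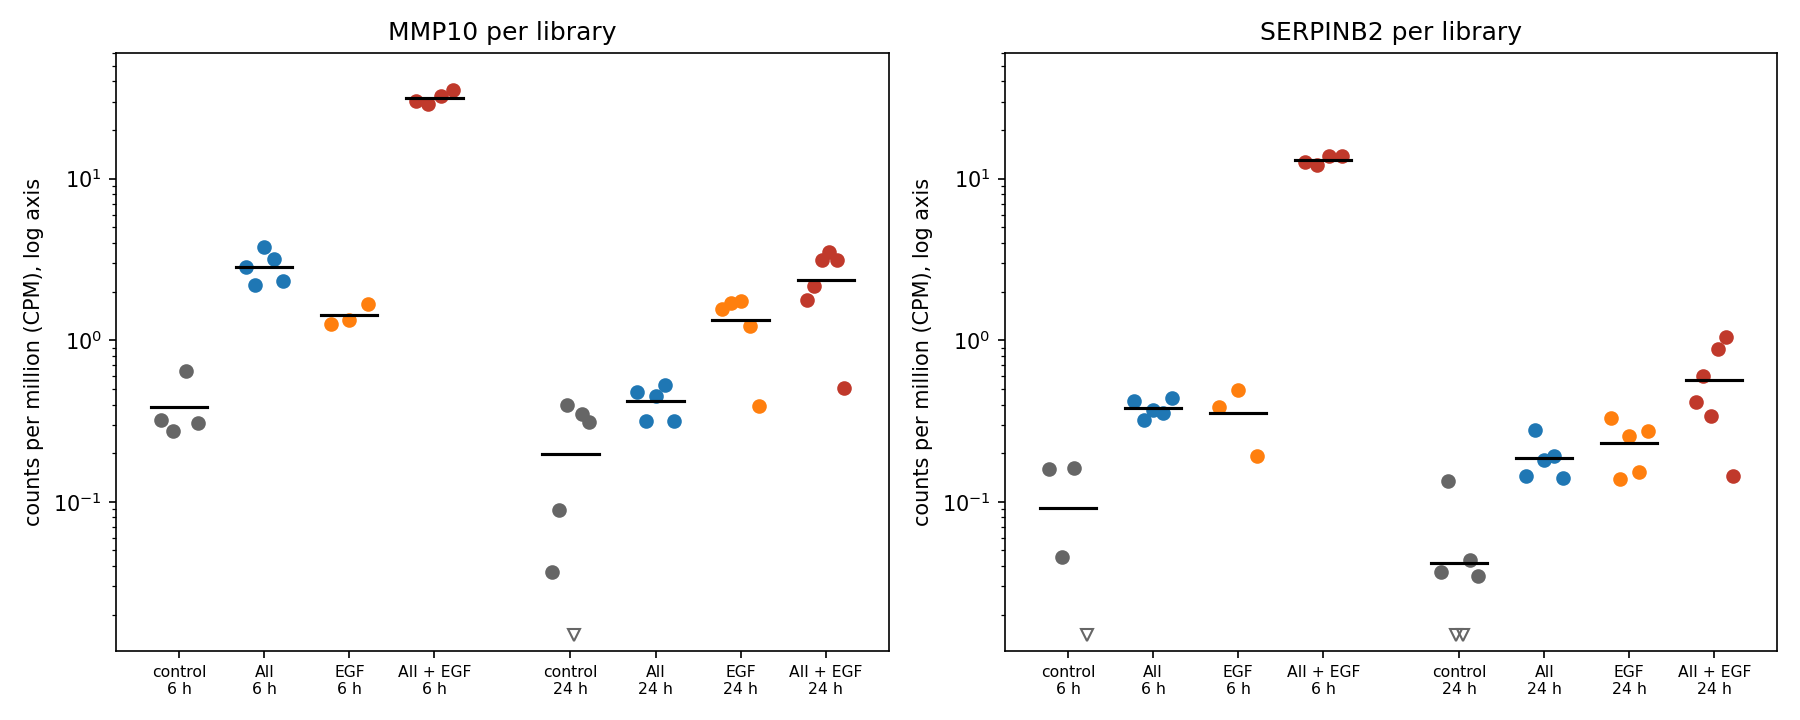
CPM of MMP10 and SERPINB2 (y axis, log scale) in each of the 38 libraries used, by treatment and time (x axis); bars are group means and open triangles at the bottom are libraries with 0 counts. The 4 AII + EGF libraries at 6 h lie at 28.8 to 35.2 CPM for MMP10 and at 12.2 to 13.7 CPM for SERPINB2, above all others.

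On the linear scale the joint effect exceeded the sum of the single effects in both genes. For MMP10 the effects of AII and EGF alone summed to 3.51 CPM and the joint effect was 31.3 CPM, an excess of 27.8 ± 1.41 CPM (SE). For SERPINB2 the sum was 0.554 CPM, the joint effect 13.02 CPM and the excess 12.5 ± 0.395 CPM. Both were smaller with all 48 libraries, at 15.2 ± 6.17 CPM for MMP10 and 7.13 ± 2.61 CPM for SERPINB2. At 24 h the excess was 0.819 ± 0.531 CPM for MMP10 and 0.195 ± 0.148 CPM for SERPINB2, each less than 2 SE. An excess on this scale was not limited to these 2 genes. TIMP3 at 6 h had 35.8 ± 8.78 CPM beyond a sum of 9.55 CPM, but 25.1 ± 14.9 CPM with all 48 libraries. PLAU and the barely detected MMP1 and MMP3 also exceeded 2 SE at 6 h, while PLAUR, PLAT and TIMP1 did not. With all 48 libraries PLAU (0.610 ± 0.464 CPM), MMP1 (0.0697 ± 0.0354 CPM) and MMP3 (0.0310 ± 0.0911 CPM) no longer exceeded 2 SE. Of the 9 genes only TIMP1 exceeded 2 SE at 24 h, with 62.6 ± 29.05 CPM. On the log2 scale, where the joint fold is set against the product of the single folds, the interaction at 6 h was 3.09 ± 0.86 for SERPINB2 and 1.58 ± 0.64 for MMP10. Of the 7 genes of the group that could be tested, edgeR called 0 for this interaction, with 3 at an unadjusted p under 0.05 and 0.229% of all genes called. DESeq2, read for SERPINB2 and MMP10, put 1 of these 2 past the adjusted p, which is no support, as both were chosen for these values. Its direction rests on which libraries are used, since it was -0.82 for SERPINB2 and -1.09 for MMP10 with all 48.

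The libraries left out bear on both genes. On the scaling of all 48 libraries, the near-identical pair labelled EGF replicate 1 and AII + EGF replicate 4, both of 6 h, held 16.2 and 16.4 CPM of MMP10 and 5.63 and 5.73 CPM of SERPINB2. AII 6 h replicate 6, whose label is in doubt, held 18.8 CPM of MMP10 and 6.92 CPM of SERPINB2, and AII + EGF 6 h replicate 6 held 2.82 and 0.488 CPM. When they were kept, the log2 change of SERPINB2 at 6 h was 3.85 for AII, 3.54 for EGF and 6.57 for AII + EGF, and that of MMP10 3.76, 3.21 and 5.88.

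**Figure D2:**
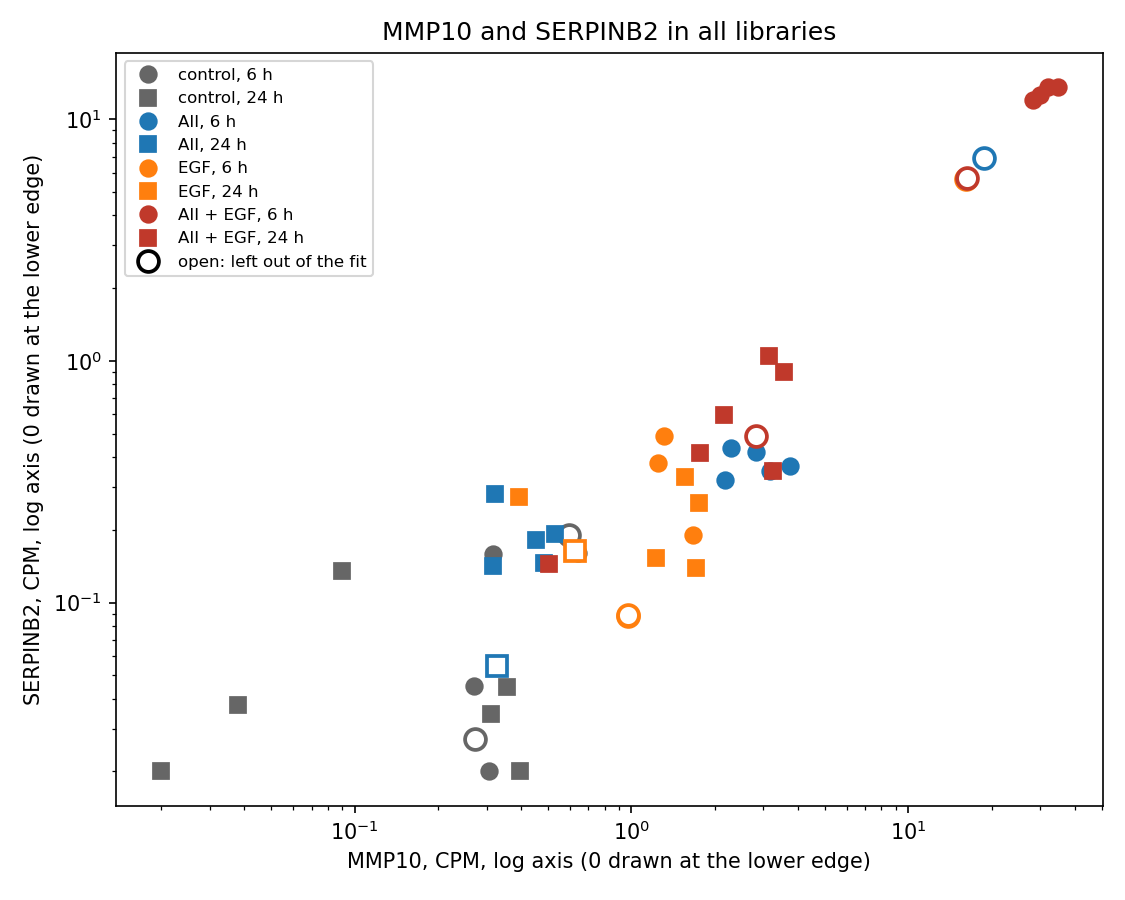
MMP10 against SERPINB2 in all 48 libraries, in CPM on log axes with 0 drawn at the lower edge; circles are 6 h, squares 24 h, colours the labelled treatment, and open symbols the 10 libraries left out. Open symbols labelled AII, EGF and AII + EGF at 6 h lie between the main AII + EGF cluster and the rest, at 16.2 to 18.8 CPM of MMP10, and another labelled AII + EGF lies at 2.82 CPM among the AII libraries.

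MMP1 and MMP3 stayed at the edge of detection and did not pass the filter on low counts. MMP1 had 0 counts in the control libraries of 6 h, which allows up to 0.0365 CPM over the group, and 2, 2, 3 and 4 counts in the AII + EGF libraries. The 3 EGF libraries also had 0 counts of MMP1 (up to 0.0382 CPM), and the AII libraries 2 in all. At the same time MMP3 (stromelysin-1) had 2 counts over the controls, 6 over the AII libraries, 0 over the EGF libraries and 17 over those with both. The genes MMP1, MMP3 and MMP10 lie side by side on chromosome 11 (RefSeq, GRCh38), between 102770502 and 102843609. MMP10 and MMP3 are close paralogs, and it is not stated how multi-mapping reads were counted, so a count may belong to its neighbour.

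PLAT was the more abundant of the activators. At 6 h it held 27.9, 29.1, 29.5 and 30.01 CPM in control and 27.97, 28.9, 31.1, 31.8 and 33.7 CPM under AII, which overlap. EGF libraries held 47.9, 48.7 and 54.2 CPM and AII + EGF libraries 45.8, 55.0, 62.5 and 63.3 CPM. Both EGF-containing groups thus lay above both groups without EGF. EGF replicates 3 and 4 and AII + EGF replicate 3 share a run of the sample titles, where EGF held 47.9 and 48.7 CPM and AII + EGF 45.8 CPM. AII + EGF replicates 1 and 2, at 63.3 and 62.5 CPM, stand in another run. The log2 change was 0.08 ± 0.12 for AII, 0.79 ± 0.13 for EGF and 0.96 ± 0.13 for AII + EGF, and AII + EGF differed from EGF by 0.17 ± 0.13. Using all 48 libraries, the change was 0.32 for EGF and 0.39 for AII + EGF.

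PLAU was low at 6 h, at 0.484 to 1.28 CPM in control, 0.752 to 1.16 CPM under AII and 1.08 to 1.29 CPM under EGF. Under AII + EGF it held 1.55, 1.56, 1.77 and 2.09 CPM, above all other libraries used at this time. The log2 change was 0.92 ± 0.28, and -0.03 with all 48 libraries. Left-out libraries labelled control 6 h, replicates 1 and 2, held 3.09 and 2.20 CPM, and left-out EGF replicate 1 held 1.67 CPM. PLAUR held 3.81, 4.09, 6.17 and 6.25 CPM in control, 4.63 to 7.51 CPM under AII, 6.5 to 7.25 CPM under EGF and 7.54, 9.71, 10.9 and 11 CPM under AII + EGF. The control libraries of PLAUR fell into a lower and a higher pair, and the higher pair, replicates 3 and 4, shares a run of the sample titles. In that run AII replicates 3 and 4 held 7.51 and 7.42 CPM and AII + EGF replicate 3 held 7.54 CPM. AII + EGF replicates 1 and 2, at 11 and 10.9 CPM, stand in another run, in which no control was used. Treatment and title order are thus partly mixed at 6 h. Its log2 change under AII + EGF was 0.95 ± 0.18, and 0.65 with all 48 libraries.

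TIMP1 held 57.2, 74.0, 84.9 and 105 CPM in control at 6 h and 120, 129, 133 and 154 CPM under AII + EGF (log2 change 0.74 ± 0.26). TIMP3 held 109, 123, 124 and 126 CPM in control and 156, 161, 162 and 185 CPM under AII + EGF (0.46 ± 0.10). Neither inhibitor overlapped between these groups, but both changes were small beside those of SERPINB2 and MMP10. Under AII alone TIMP1 differed by 0.09 ± 0.24 and TIMP3 by -0.16 ± 0.10. Under EGF alone TIMP1 differed by 0.41 ± 0.27 and TIMP3 by 0.25 ± 0.11, and the EGF libraries of TIMP3 (136 to 150 CPM) lay above all controls. With all 48 libraries the change under AII + EGF was 0.53 for TIMP1 and 0.23 for TIMP3. The left-out AII + EGF replicate 6, whose label is in doubt, held 65.1 CPM of TIMP1 and 88.8 CPM of TIMP3.

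**Figure D3:**
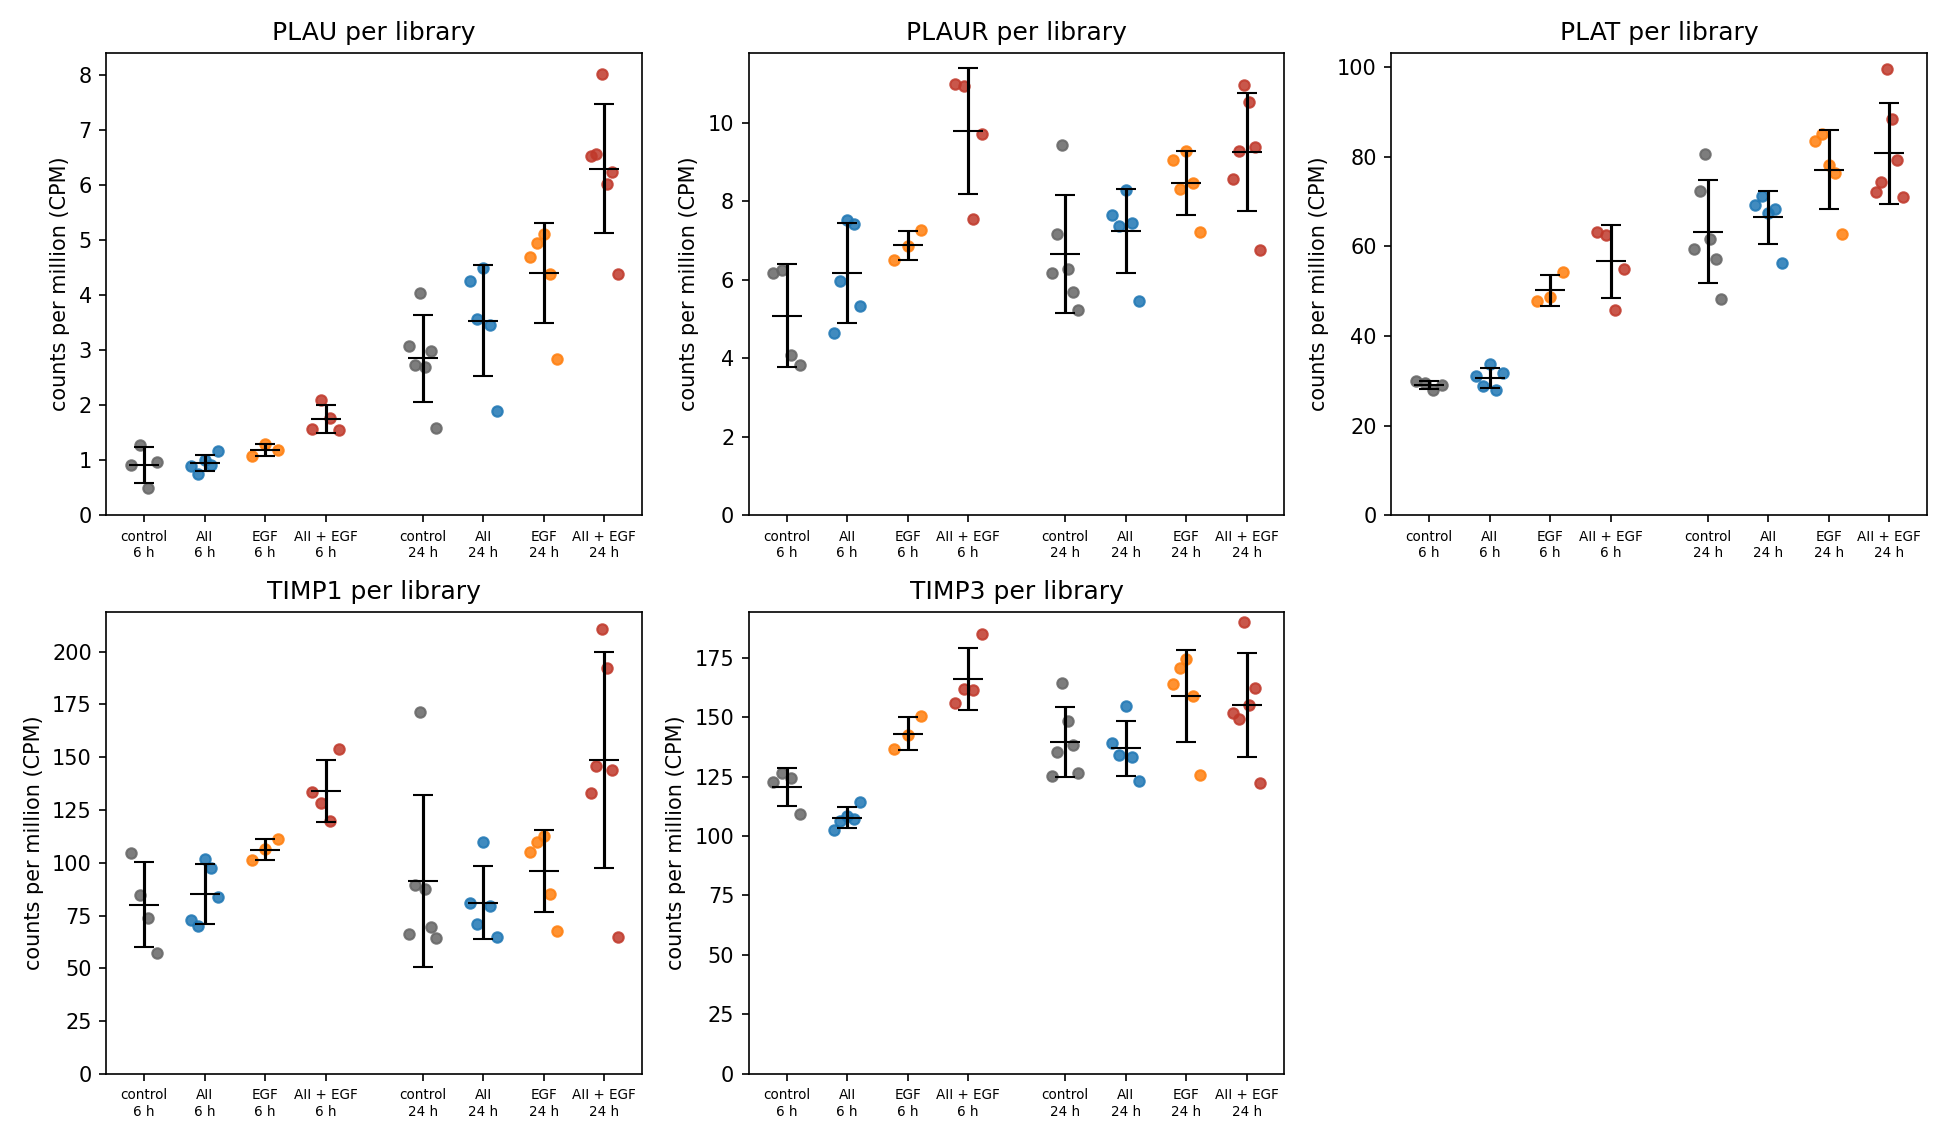
CPM of PLAU, PLAUR, PLAT, TIMP1 and TIMP3 (y axes, linear from 0) in each library used, by treatment and time; black marks are the mean ± SD of the group. PLAT separates the groups with EGF from those without at 6 h, and the PLAU values at 24 h, from 1.59 to 8.02 CPM, lie mostly above those at 6 h.

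A gene was called when its adjusted p was under 0.01, its change at least 1.5-fold and its mean above 5 CPM in the group with more. Under AII + EGF at 6 h 4 of the 7 tested genes were called higher (SERPINB2, PLAUR, PLAT and MMP10), against 6.45% of all 19626 tested genes, and 7 of 7 did not overlap with control, against 17.4% of all genes. Since the choice of genes used this contrast, nothing is read from these counts. EGF alone gave 1 call (PLAT; 1.62% of all genes were called higher) and AII alone 0 (0.459%), with 2 genes at an unadjusted p under 0.05 and 0 called by DESeq2. Without overlap were 2 genes under AII (SERPINB2 and MMP10; 4.88% of all genes) and 5 under EGF (13.2%). AII + EGF against EGF gave SERPINB2 and MMP10 (1.62%), with log2 differences of 5.18 ± 0.40 and 4.47 ± 0.43, and with all 48 libraries MMP10 alone (0.238%). AII + EGF against AII gave SERPINB2, PLAUR, PLAT, MMP10 and TIMP3 (4.21%). AII + EGF libraries lay above all EGF libraries in 6 of the 7 genes (13.9%) and above all AII libraries in 7 (14.5%). These comparisons share their control or AII + EGF libraries.

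**Figure D4:**
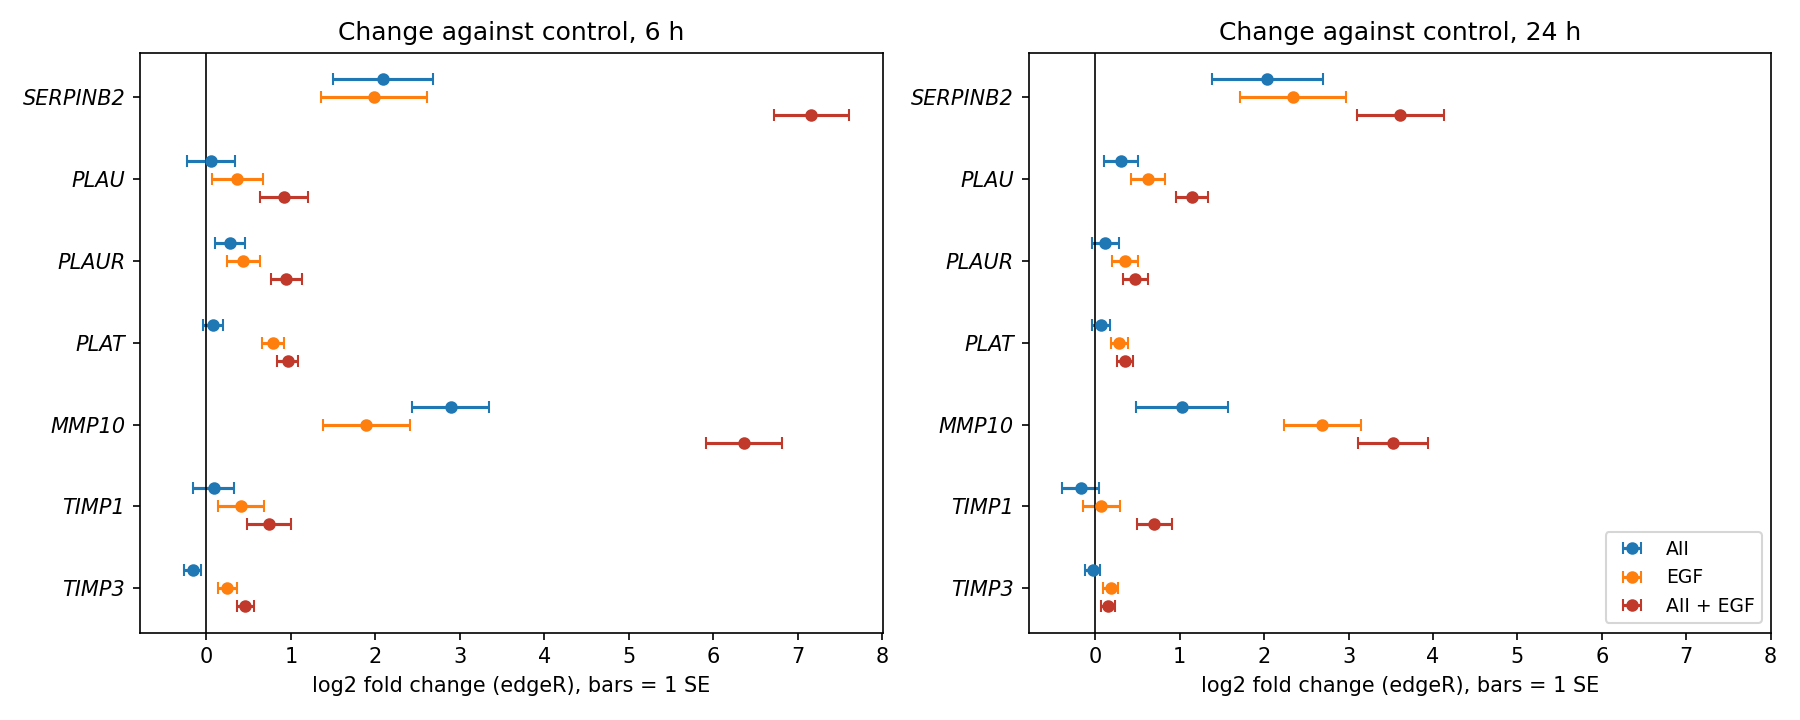
Log2 fold change against the control of the same time (x axis, edgeR, bars 1 SE) for the 7 tested genes under AII, EGF and AII + EGF, at 6 h on the left and 24 h on the right. SERPINB2 and MMP10 reach 7.16 and 6.36 at 6 h and 3.61 and 3.52 at 24 h under AII + EGF, while the other 5 genes stay at or under 1.14.

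At 24 h the libraries are others than those whose contrast named SERPINB2 and MMP10. The genes were still chosen with earlier results of both times known, so the p-values given here and below are no independent test of them. MMP10 held 0, 0.0369, 0.0894, 0.311, 0.350 and 0.399 CPM in control and 0.316, 0.317, 0.453, 0.478 and 0.528 CPM under AII. EGF libraries held 0.390, 1.22, 1.57, 1.71 and 1.75 CPM, and AII + EGF libraries 0.503, 1.76, 2.16, 3.14, 3.14 and 3.49 CPM. All AII + EGF libraries thus lay above all controls, and 1 of 5 EGF libraries among them. MMP10 was 3.52 ± 0.42 higher on the log2 scale under AII + EGF (edgeR quasi-likelihood test, Benjamini-Hochberg adjusted p = 1.2e-07) and 2.69 ± 0.46 higher under EGF (adjusted p = 0.000787). The second value was 2.54 with an adjusted p of 0.179 when all 48 libraries were used. AII + EGF and EGF differed by 0.83 ± 0.33 (adjusted p = 0.327, interval of 2 SE from 0.16 to 1.502).

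SERPINB2 at 24 h held 0 to 0.134 CPM in control, with 2 of 6 libraries at 0 counts, 0.141 to 0.278 CPM under AII and 0.139 to 0.332 CPM under EGF. AII + EGF libraries held 0.144, 0.338, 0.415, 0.597, 0.885 and 1.05 CPM, or 4 to 25 counts, above all controls. The log2 change under AII + EGF was 3.61 ± 0.51 (edgeR, adjusted p = 1.96e-06, but 0.0355 with all 48 libraries). EGF alone gave 2.34 ± 0.63 (adjusted p = 0.027) and AII alone 2.04 ± 0.66 (adjusted p = 1.00), neither past the threshold. The pooled ratio of AII + EGF at 6 h to 24 h was 23.3 (95% interval 18.4 to 29.8) for SERPINB2 and 13.8 (12.3 to 15.6) for MMP10. The response to AII + EGF was smaller at 24 h than at 6 h by 3.55 ± 0.98 on the log2 scale for SERPINB2 and by 2.84 ± 0.69 for MMP10. Both genes stayed under 5 CPM at 24 h, and neither was called.

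PLAU was the only gene of the group called under AII + EGF at 24 h. Control libraries held 1.59, 2.70, 2.73, 2.97, 3.07 and 4.03 CPM, AII libraries 1.90, 3.46, 3.57, 4.26 and 4.48 CPM, and EGF libraries 2.84, 4.38, 4.70, 4.94 and 5.11 CPM. AII + EGF libraries held 4.38, 6.01, 6.24, 6.53, 6.57 and 8.02 CPM. Groups were ordered control, AII, EGF, AII + EGF, and only AII + EGF did not overlap with control. PLAU rose by 1.14 ± 0.19 on the log2 scale, or 2.21-fold (edgeR, adjusted p = 3.48e-05), against 0.31 ± 0.20 under AII (adjusted p = 1.00) and 0.63 ± 0.20 under EGF (adjusted p = 0.0929). Over the other sets of libraries, tests and filters the change under AII + EGF ranged from 1.12 to 1.17, and adjusted p reached at most 0.0023. Leaving out single libraries moved the change between 1.04 and 1.27, with adjusted p up to 0.000188. AII + EGF exceeded AII by 0.84 ± 0.20 (adjusted p = 0.00476, but 0.0181 with all 48 libraries). This difference no longer passed without AII replicate 2, 5 or 6 or AII + EGF replicate 3 or 5, with adjusted p up to 0.0271. The difference of PLAU from EGF was 0.52 ± 0.20 (adjusted p = 0.284).

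TIMP1 at 24 h held 64.5, 66.1, 69.5, 87.4, 89.6 and 171 CPM in control and 64.6, 133, 144, 146, 192 and 211 CPM under AII + EGF. Each group had 1 library at the level of the other: control replicate 3 at 171 CPM and AII + EGF replicate 6 at 64.6 CPM. The log2 change was 0.70 ± 0.21 (edgeR, adjusted p = 0.015), 0.98 without that control (adjusted p = 0.000232) and 0.86 without that AII + EGF library (adjusted p = 0.000909). With the order of titles as a block it was 0.68 ± 0.13 (adjusted p = 8.57e-05), a call. TIMP1 passed the threshold against AII, at 0.87 ± 0.22 (adjusted p = 0.00824), but only the fits without AII replicate 3 or AII + EGF replicate 6 still passed among those that left out 1 library (adjusted p up to 0.0346). The block gave 0.73 ± 0.14 there (adjusted p = 0.000159). TIMP3 ranged from 125 to 164 CPM in control and from 122 to 190 CPM under AII + EGF and differed by 0.15 ± 0.08 (adjusted p = 0.22).

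PLAT and PLAUR at 24 h overlapped between all groups. PLAT ranged from 48.4 to 80.6 CPM in control and from 71.1 to 99.6 CPM under AII + EGF, with a log2 change of 0.35 ± 0.10 (edgeR, adjusted p = 0.0109). It passed without control replicate 2 or 3 or AII + EGF replicate 1, 2 or 6, with adjusted p down to 0.00119, at less than 1.5-fold. PLAUR ranged from 5.22 to 9.44 CPM and from 6.75 to 10.97 CPM, with 0.47 ± 0.15 (adjusted p = 0.0198). With the order of titles as a block both passed the adjusted p (0.00036 and 0.00141), at less than 1.5-fold. MMP1 had 0 counts in control and AII libraries (up to 0.0206 and 0.0255 CPM), 2 under EGF and 7 under AII + EGF, and MMP3 had 3, 8, 7 and 17 counts in the same order.

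Among the 7 tested genes 1 was called higher under AII + EGF at 24 h, against 1.7% of all genes, and 3 passed the adjusted p alone (SERPINB2, PLAU and MMP10), against 5.29%. The same 3 did not overlap with control, against 2.62% of all genes. The median log2 change was 0.70 over the 7 genes and -0.02 over all genes tested. Leaving out control 24 h replicate 3 raised the calls to 3 (PLAU, PLAUR and TIMP1), and leaving out AII + EGF 24 h replicate 6 to 2 (PLAU and TIMP1). Under EGF 0 of the 7 were called (0.163% of all genes; 6 at an unadjusted p under 0.05, 0 called by DESeq2), and under AII 0 (0% of all genes; 1 at an unadjusted p under 0.05, 0 called by DESeq2). AII + EGF against EGF gave 0 calls (0.0815%; 4 at an unadjusted p under 0.05, 0 called by DESeq2), and against AII 2 (PLAU and TIMP1; 0.856%). For the interaction at 24 h 0 genes of the group and 0% of all genes were called (1 of the 7 at an unadjusted p under 0.05, 0 called by DESeq2). It was -0.77 ± 0.80 for SERPINB2, -0.19 ± 0.65 for MMP10 and 0.80 ± 0.31 for TIMP1 (adjusted p = 0.998 each).

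The replicate 6 libraries of the 4 groups at 24 h are the last in the order of sample titles, and PLAU, PLAUR, PLAT and TIMP1 were lowest there in each group. PLAUR was at 5.22, 5.45, 7.21 and 6.75 CPM in control, AII, EGF and AII + EGF, and PLAT at 48.4, 56.2, 62.8 and 71.1 CPM. PLAU was at 1.59 CPM in control, 1.90 under AII, 2.84 under EGF and 4.38 under AII + EGF, in the order of the group means. MMP10 was at 0.311, 0.316, 0.390 and 0.503 CPM in the same libraries and TIMP1 at 64.5, 65.0, 67.5 and 64.6 CPM. Without the last libraries in title order the log2 change at 24 h was 3.97 for MMP10, 3.80 for SERPINB2, 1.12 for PLAU and 0.79 for TIMP1 under AII + EGF.

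In control cells PLAT and PLAU were higher at 24 h than at 6 h. The libraries of 6 h and of 24 h stand in separate runs of the sample titles. Time and title order therefore cannot be told apart, here or in the ratios of 6 h to 24 h above. PLAT averaged 29.1 ± 0.918 CPM (SD, n = 4) at 6 h and 63.3 ± 11.5 CPM (SD, n = 6) at 24 h, a log2 rise of 1.12 ± 0.12 (edgeR, adjusted p = 2.71e-08). PLAU averaged 0.907 ± 0.326 CPM and 2.85 ± 0.786 CPM, a rise of 1.62 ± 0.25 (adjusted p = 9.01e-06). The libraries of these 2 genes did not overlap between the times (8.07% of all genes did not, with 24 h higher). The 2 control libraries of 6 h that were left out held 54.4 and 55.2 CPM of PLAT, within the range of 24 h. Their near-identical partners are labelled EGF 24 h replicate 2 and AII 24 h replicate 4, so their time is in doubt. Once they were kept, PLAT still passed at 0.76 (adjusted p = 0.00259) and PLAU did not, at 0.89 (adjusted p = 0.019). Of the 7 genes, 1 (PLAT) was called higher, against 4.77% of all genes, since PLAU stayed under 5 CPM. The response of PLAT to AII + EGF was smaller at 24 h than at 6 h by 0.61 ± 0.16, and by 0.03 with all 48 libraries.

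A list of 63 other genes of these systems, chosen with earlier results of these data known, was read from the same fit, and 40 of them could be tested. For this reason its calls and adjusted p-values, here and below, are descriptions and no independent test. Under AII + EGF at 6 h 12 of the 40 were called higher and 1 lower, against 6.45% and 5.53% of all genes, with a median log2 change of 0.48 beside -0.03 for all genes. All 48 libraries gave 9 higher and 5 lower (LRP1, MMP11, MMP14, MMP23B and TIMP2), without ETS1, MMP24, CD44 and SERPINI1. The AP-1 and ETS factors, families that bind the motifs named above, held 8 of these calls among 12 genes. Whether they act on the genes described here was not tested. ETV4 rose by 7.75 ± 0.74 (edgeR, adjusted p = 6.06e-11), ETV5 by 6.49 ± 0.53 (2.42e-12), ETV1 by 4.75 ± 0.46 (1.17e-10) and ETS1 by 3.74 ± 0.33 (1.63e-11). FOS, FOSL1, FOSL2 and JUNB were the other calls, and JUN, at 0.13 ± 0.11, did not pass (adjusted p = 0.385).

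Among 16 other plasminogen system genes, 11 tested, SERPINE2 (protease nexin-1, a serpin that inhibits urokinase) rose from 20.3 ± 3.40 CPM in control to 51.2 ± 7.07 CPM under AII + EGF at 6 h, by 1.34 ± 0.13 (edgeR, adjusted p = 2.40e-10). ANXA2, a plasminogen binding protein of the cell surface, rose by 0.70 ± 0.15 (adjusted p = 0.000312). SERPINI1 (neuroserpin, an inhibitor of PLAT) fell by 1.01 (SE 0.19, adjusted p = 4.98e-05) at 6 h and rose by 0.72 ± 0.15 (adjusted p = 0.000679) at 24 h. PLG, the gene of plasminogen itself, did not pass the filter on low counts.

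Of 20 other metalloproteinases, 12 tested, MMP24, a membrane-type enzyme, was the only one called at 6 h, with a rise of 3.34 ± 0.27 (edgeR, adjusted p = 1.59e-12), and with all 48 libraries it was not called, since its mean was then under 5 CPM (log2 change 3.03, adjusted p = 5.68e-08), while 3 of this list were called lower. MMP13, a collagenase, was 2.71 ± 0.44 higher (adjusted p = 5.25e-06) at a mean of 1.46 CPM. Of 6 other inhibitors and partners, 4 tested, the hyaluronan receptor CD44 was called, with 0.63 ± 0.16 (adjusted p = 0.00268). It was not called with all 48 libraries (0.41, adjusted p = 0.0215), where TIMP2 was called lower. Of 9 clade B serpins of the SERPINB2 locus only SERPINB8 could be tested, and it was 2.65 ± 0.34 higher (adjusted p = 5.10e-08) at 4.62 CPM. At 24 h 5 of the 40 genes were called higher and 0 lower (1.7% and 1.2% of all genes): ETV4, ETV5, F12, SERPINI1 and MMP15. FOSL2 differed by -0.31 ± 0.08 (adjusted p = 0.00494), less than 1.5-fold.

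**Figure D5:**
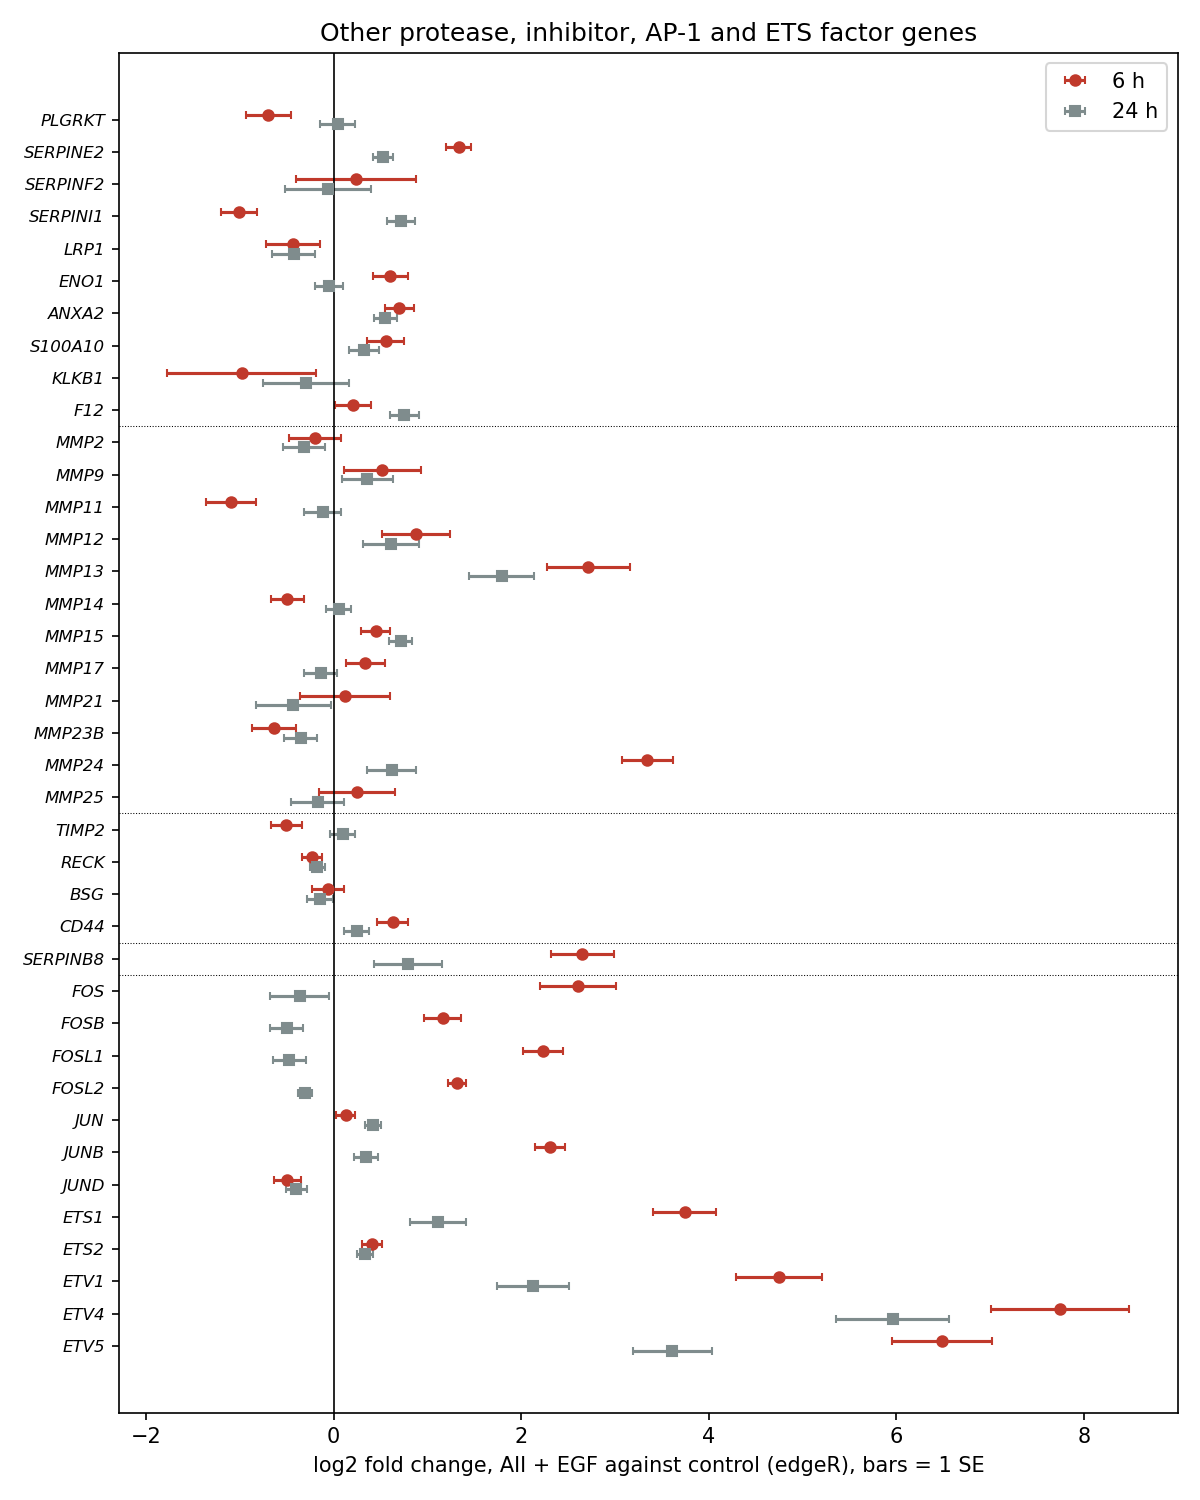
Log2 fold change of AII + EGF against control (x axis, edgeR, bars 1 SE) at 6 h (circles) and 24 h (squares) for the tested genes of the list that are reported here, with dotted lines between plasminogen system genes, metalloproteinases, inhibitors and partners, SERPINB8, and AP-1 and ETS factors from top to bottom. ETV4 and ETV5 lie farthest to the right at 6 h, at 7.75 and 6.49, and SERPINI1 lies on opposite sides of 0 at 6 h and 24 h.

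Keratinocyte markers were checked beside SERPINB2, which is abundant in that cell type. Their sum over 5 genes was 0 to 0.213 CPM in control and 0.909 to 2.41 CPM under AII + EGF at 6 h. Of the list only KRT14 exceeded 1 CPM in any group, at 1.69 CPM, while KRT5, TP63, DSG3 and IVL stayed at or under 0.0786 CPM. The part of other cell types in the values of SERPINB2 was not tested.

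Over the 8 group means of log2(CPM + 1), the genes most like SERPINB2 were MAFA (Pearson r = 0.995), KRT14 (0.994), XIRP1 (0.992), ETS1 (0.989) and UGCG (0.989). Among those most like MMP10 were WDR26 (0.992), PEAK1 (0.983), TCAF2P1 (0.982) and IFFO2 (0.981). These are descriptions over 8 points that share their libraries, among 16145 genes compared, and the order depends on the measure: by Spearman's rho WDR26 ranked 73 and MAFA 567. By Pearson's r over the 38 libraries WDR26 ranked 475 and UGCG 2306, while XIRP1 ranked 1 and ETS1 2. The measure also leaves out the size of a change. From control to AII + EGF at 6 h UGCG went from 49.0 to 59.0 CPM, WDR26 from 171 to 222 CPM and XIRP1 from 0.0631 to 3.40 CPM.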

How the data were processed

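Poly(A) RNA of 48 libraries was sequenced by the authors, mapped to the human genome (hg38) with HISAT2 2.1.0 and counted per Ensembl gene with featureCounts. The deposited table holds these raw counts, with no normalisation. Strandedness and the treatment of multi-mapping reads are not stated. Groups came from the labels, and replicate numbers follow the order of deposition.

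The genes described and all lists were chosen with earlier results of these data known. Counts of 38 libraries were fitted with edgeR 4.0.16 (R 4.3.3): filterByExpr by group (19626 of 60610 genes, 7 of the 9 described), TMM factors and 1 quasi-likelihood fit over 8 groups without covariates, Benjamini-Hochberg adjusted over all tested genes. Calls needed an adjusted p under 0.01, at least 1.5-fold and above 5 CPM. CPM used TMM factors. Named were all 9 genes and up to 4 called genes per list with the largest changes against control, with others added where their counts are given. Exon lengths came from GENCODE v44lift37. The steps were tested on simulated data. Alternatives were other sets of libraries, DESeq2 1.42.0, RLE factors, library totals, other filters and thresholds, only the groups compared, the order of titles as a block and leaving out each library. Intervals and floors of 3 counts cover counting error only. Some genes of the lists are not reported here.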

Additional observations from a re-analysis of the deposited data

Results flagged for a closer look

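In groups of 4 to 6 libraries, 4 libraries stood apart from the rest of their group among 49 groups and genes checked, where chance gives about 1 in 20. MMP10 was at 0.645 CPM in control 6 h replicate 5, with the other 3 libraries at 0.274 to 0.319 CPM. SERPINB2 was at 0.134 CPM in control 24 h replicate 2, with the others at 0 to 0.0437 CPM. TIMP1 was at 171 CPM in control 24 h replicate 3, with the others at 64.5 to 89.6 CPM. PLAT was at 56.2 CPM in AII 24 h replicate 6, with the others at 67.6 to 71.3 CPM.

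The response to AII + EGF was set apart between the times for 3 genes, as a description only, since SERPINB2 and MMP10 were chosen for the 6 h values that enter it. On the log2 scale, 24 h minus 6 h, it was -3.55 ± 0.98 (SE) for SERPINB2, -2.84 ± 0.69 for MMP10 and -0.61 ± 0.16 for PLAT. Without single libraries it ranged from -3.96 to -2.90, from -3.18 to -2.56 and from -0.70 to -0.53. With all 48 libraries it was -2.94, -2.35 and -0.03.

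Several libraries that were left out held more MMP10 or SERPINB2 than the highest control used at the same time (0.645 CPM of MMP10 and 0.161 CPM of SERPINB2 at 6 h, 0.399 and 0.134 CPM at 24 h). For MMP10 they were, at 6 h, EGF replicates 1, 2 and 6 with 16.2, 0.972 and 0.974 CPM, AII + EGF replicates 4 and 6 with 16.4 and 2.82 CPM and AII replicate 6 with 18.8 CPM, and at 24 h EGF replicate 2 with 0.624 CPM. For SERPINB2 they were, at 6 h, control replicate 1 with 0.190 CPM, EGF replicate 1 with 5.63 CPM, AII + EGF replicates 4 and 6 with 5.73 and 0.488 CPM and AII replicate 6 with 6.92 CPM, and at 24 h EGF replicate 2 with 0.163 CPM.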

How the results depend on the processing

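The choice of libraries moved the most values. With all 48 libraries, calls among the 7 genes at 6 h were 1 for AII (0 in the main analysis), 0 for EGF (1) and 1 for AII + EGF against EGF (2). Keeping the 2 libraries with labels in doubt gave 1 for AII and 0 for EGF, and keeping the near-identical pairs gave 0 for EGF. With all 48 libraries the interaction turned to -0.82 for SERPINB2 and -1.09 for MMP10 at 6 h and to 0.031 for MMP10 at 24 h, which was 0.016 with the pairs kept. Leaving out single libraries moved the 24 h interaction of MMP10 between -0.48 and 0.041, turning its sign for control replicates 1 and 4 and AII + EGF replicate 6.

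Calls under AII + EGF at 24 h rose from 1 to 2 with the pairs kept, without the last libraries in title order, with library totals, no filter, the title order as a block, DESeq2 or an adjusted p under 0.05, to 3 without the minimum of 5 CPM, and to between 1 and 3 without single libraries. AII + EGF against EGF at 24 h gave 1 with the title order as a block (TIMP1, 0 in the main analysis). Without the minimum of 5 CPM, AII at 6 h gave 1, EGF at 24 h 1, and control 24 h against 6 h 2. Calls in the list of 40 genes at 24 h were 5, and 3 with only the groups compared, 8 without the minimum of 5 CPM and 10 without the minimum fold. Of 1036 single-gene values recomputed, 901 kept their direction and side of the threshold, 87 no longer passed, 41 newly passed and 7 turned in sign.

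No paired analysis was possible because the sample titles carry no replicate number shared between groups. The order of titles was used as a block in its place, with the counts given above. Depth limits SERPINB2, MMP1 and MMP3, which had 0 to 3 counts per control library at 6 h.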

Other observations

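Among the 40 tested genes of the list, EGF alone at 6 h raised 6 (SERPINE2, FOS, FOSL1, JUNB, ETV4 and ETV5; 1.62% of all genes were called higher), with ETV4 at 6.39 ± 0.78 and ETV5 at 5.17 ± 0.53 on the log2 scale (edgeR, adjusted p = 1.86e-07 and 7.66e-09). AII alone gave 1 call (0.459% of all genes), ETV5, with a rise of 3.11 ± 0.51 (adjusted p = 0.000183), while ETV4 (4.04 ± 0.87, adjusted p = 0.00434) and ETV1 (2.26 ± 0.49, adjusted p = 0.00535) passed the adjusted p under 5 CPM. Whether EGF and AII differed from each other was not tested. AII + EGF exceeded EGF in 5 genes at 6 h (1.62% of all genes; SERPINE2, MMP24, FOSL2, JUNB and ETS1; 1 with all 48 libraries, FOSL2), with ETS1 at 2.74 ± 0.33 (adjusted p = 2.87e-07). FOSL2, a FOS-related AP-1 subunit, was the only gene of the list called for the interaction at 6 h, at 0.78 ± 0.14 (adjusted p = 0.00217), and 0 were called with all 48 libraries. In control cells 6 genes were called higher at 24 h than at 6 h (LRP1, F12, MMP2, MMP11, MMP14 and FOS; 4.77% of all genes) and 1 lower (SERPINI1), none of which was called with all 48 libraries.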
